A study of Mus musculus with 20 samples.

Results

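The collagen genes examined here are the 44 protein-coding genes whose mouse symbol consists of Col, a type number, the letter a and a chain number, out of 43430 genes counted in renal cortex. They comprise 11 genes of fibrillar collagens, 9 of basement membrane collagens, with *Col19a1* placed among them, and 24 of other collagens. Of the 44 genes, 32 had enough counts to be tested, namely 9 fibrillar, all 9 basement membrane and 14 other genes, among 16152 genes tested in all.

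The study sequenced poly(A) RNA from the kidneys of male C3H/HeJ mice that were either WT or homozygous for Sweet Pee (SP), a missense allele of *Slc5a2* that leaves no working SGLT2, the glucose carrier of the proximal tubule. The allele is carried in every cell of the animal. All mice were 10 weeks old when a high-fat diet (HFD) began, and after 8 weeks on it they received, while the diet went on, 8 weeks of intraperitoneal injections, 3 a week. MAT2Ai mice were given 10 mg/kg of an inhibitor of MAT2A, 4-(2-chloro-6-fluorostyryl)-N-methylaniline in its E form, and placebo mice DMSO. MAT2A is the enzyme that makes S-adenosylmethionine. The 4 groups, with 5 libraries each, were SP MAT2Ai, SP placebo, WT MAT2Ai and WT placebo, so every group carried the HFD and no lean group was analysed here.

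Collagens are triple helices of 3 chains whose proline and lysine residues are hydroxylated before the helix winds. Fibrillar collagens such as types I, III and V are laid down by fibroblasts, pericytes and vascular smooth muscle, and their build-up between the tubules is what is seen as renal fibrosis. Type IV collagen forms the sheet-like network of basement membranes. A ubiquitous form is made of the chains of *Col4a1* and *Col4a2*, and a specialised form of the chains of *Col4a3*, *Col4a4* and *Col4a5* is laid down by podocytes in the glomerular basement membrane, where mutations of these genes cause Alport syndrome. Type VI collagen forms beaded filaments, and fibril-associated collagens such as types XII, XIV and XVI bind to the surface of fibrils.

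The libraries held between 53296824 and 79339949 counts in genes. *Slc5a2* was measured to check the labels. In replicates 1 and 2 of SP placebo it reached 241 and 282 CPM (counts per 1000000 counts of the effective library size), against 40.2 to 85.9 CPM in the other 8 SP libraries and 229 to 518 CPM in the WT libraries. Several counts and medians are therefore also given without these libraries. WT MAT2Ai replicate 2 stood apart from all other libraries. Its markers of injured tubule summed to 6888 CPM, against 326 to 801 CPM elsewhere, and its markers of proximal tubule to 7537 CPM, against at least 10014 CPM elsewhere. Markers of proximal tubule were the most abundant of all marker lists in every library.

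Per length of exon, the collagen mRNA of these kidneys was mainly that of basement membranes. The highest mean levels over the 20 libraries were 22.8 RPKM (CPM per 1000 bases of exon) for *Col4a1*, 21.4 RPKM for *Col4a4*, 20.7 RPKM for *Col18a1*, which encodes the heparan sulfate collagen that releases endostatin, 16.9 RPKM for *Col4a2* and 15.9 RPKM for *Col4a3*. The first gene of another class was *Col27a1*, a fibrillar collagen best known from cartilage, at 8.51 RPKM. *Col4a5* followed at 5.39 RPKM and *Col6a6*, an alternative long chain of type VI collagen, at 4.08 RPKM. The 3 genes of interstitial fibrils were much lower, with *Col1a2* at 1.08 RPKM, *Col3a1* at 0.754 RPKM and *Col1a1* at 0.737 RPKM.

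**Figure D1:**
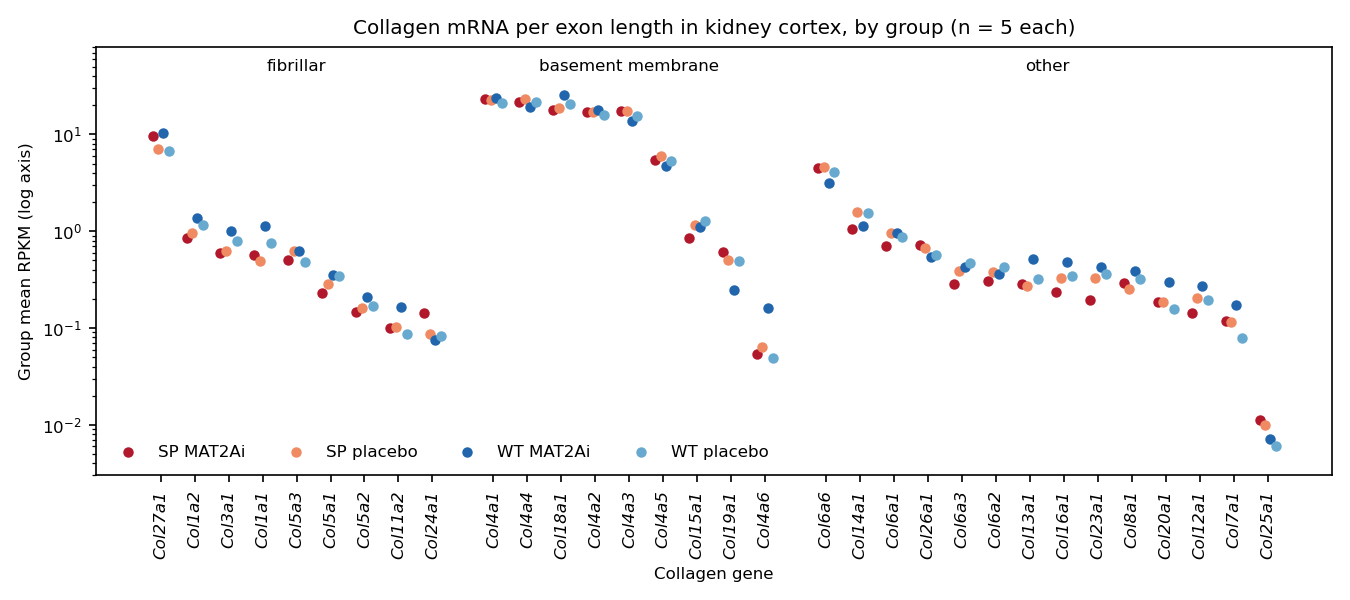
Group mean level of each tested collagen gene per kilobase of exon (RPKM, log axis, n = 5 libraries per point), sorted within class; colours mark the 4 groups. Basement membrane genes reach 22.8 RPKM averaged over all libraries (*Col4a1*), while the fibrillar genes other than *Col27a1* (8.51 RPKM) average at most 1.08 RPKM.

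As a share of all collagen counts, the type IV chains made up 66.6% ± 5.4 in SP MAT2Ai, 68.0% ± 1.6 in SP placebo, 60.7% ± 3.5 in WT MAT2Ai and 65.4% ± 3.4 in WT placebo (SD, n = 5 each). The genes of types I and III made up 1.82% ± 0.90 in SP MAT2Ai, 1.93% ± 0.34 in SP placebo, 3.04% ± 0.81 in WT MAT2Ai and 2.61% ± 0.57 in WT placebo. These shares are of counts, which grow with transcript length, and are given as a description. All pairs of groups overlapped in both shares, except that the type IV share of SP placebo (66.0 to 69.8%) lay above that of WT MAT2Ai (56.1 to 65.6%).

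The comparison of the genotypes under the inhibitor was where collagen genes passed the threshold of an adjusted p under 0.05 (edgeR quasi-likelihood test with Benjamini-Hochberg adjustment over the 16152 genes, as for every adjusted p below unless another tool is named). In SP MAT2Ai against WT MAT2Ai 3 of the 32 collagen genes passed, *Col19a1* and *Col6a6* higher and *Col16a1* lower, and among all genes tested 1.84% passed. An unadjusted p under 0.05 was met by 18 of the 32, 5 higher and 13 lower, against 21.8% of all genes. Of the 32 genes, 24 had a negative log2 fold change, and their median was −0.43, against −0.02 for all genes tested. The 5 libraries of one group lay entirely above or below the 5 of the other for 2 of the 32, which are *Col19a1* and *Col6a6*, and for 3.40% of all genes. The 13 lower genes became 10 without WT MAT2Ai replicate 2, 8 without WT MAT2Ai replicate 3 and 3 without WT MAT2Ai replicates 2 to 4, and the 5 higher genes became 4, 6 and 5. Over all genes an unadjusted p under 0.05 was met by 2977 of 16296, 3454 of 16307 and 2424 of 16770 in these fits. With all libraries it was met by 3524 of 16152. Without replicates 2 to 4 the median over the 34 genes then tested was −0.21. That fit keeps only 2 of the 5 WT MAT2Ai libraries. Fewer genes passing in it, here and below, cannot be told apart from a loss of power.

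With edgeR, no collagen gene passed in the other comparisons of single groups. In SP MAT2Ai against SP placebo 0 of 32 passed with edgeR, DESeq2 or limma-voom, where 0.0186% of all genes passed with edgeR, and 2 of 32 had an unadjusted p under 0.05, 1 higher and 1 lower, against 5.92% of all genes, or 1 of 34, lower, without SP placebo replicates 1 and 2. Without those libraries 588 of 16551 genes in all had an unadjusted p under 0.05. No collagen gene had groups without overlap in SP MAT2Ai against SP placebo, against 1.58% of all genes. In WT MAT2Ai against WT placebo 0 of 32 passed with edgeR or limma-voom and 1 with DESeq2 (*Col19a1*), 0% of all genes passed with edgeR, and 7 of 32 had an unadjusted p under 0.05, 5 higher and 2 lower, against 15.7%. That number was 10 without WT MAT2Ai replicate 3 (7 higher, 3 lower) and 4 of 34 without WT MAT2Ai replicates 2 to 4 (2 higher, 2 lower). Over all genes it was 2705 of 16307 and 1579 of 16770 in these fits. The groups did not overlap for 1 gene, *Col20a1*, against 2.19% of all genes. In SP placebo against WT placebo 0 of 32 passed with edgeR, DESeq2 or limma-voom, 0% of all genes passed with edgeR, 0 of 32 had an unadjusted p under 0.05, against 3.75% of all genes, and 0 had groups without overlap, against 1.19%. Without the libraries labelled SP placebo 1 and 2 that last comparison had 2 collagen genes with an unadjusted p under 0.05, both lower, and still 0 past the threshold. Over all genes 823 of 16551 had an unadjusted p under 0.05 in that fit.

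**Figure D2:**
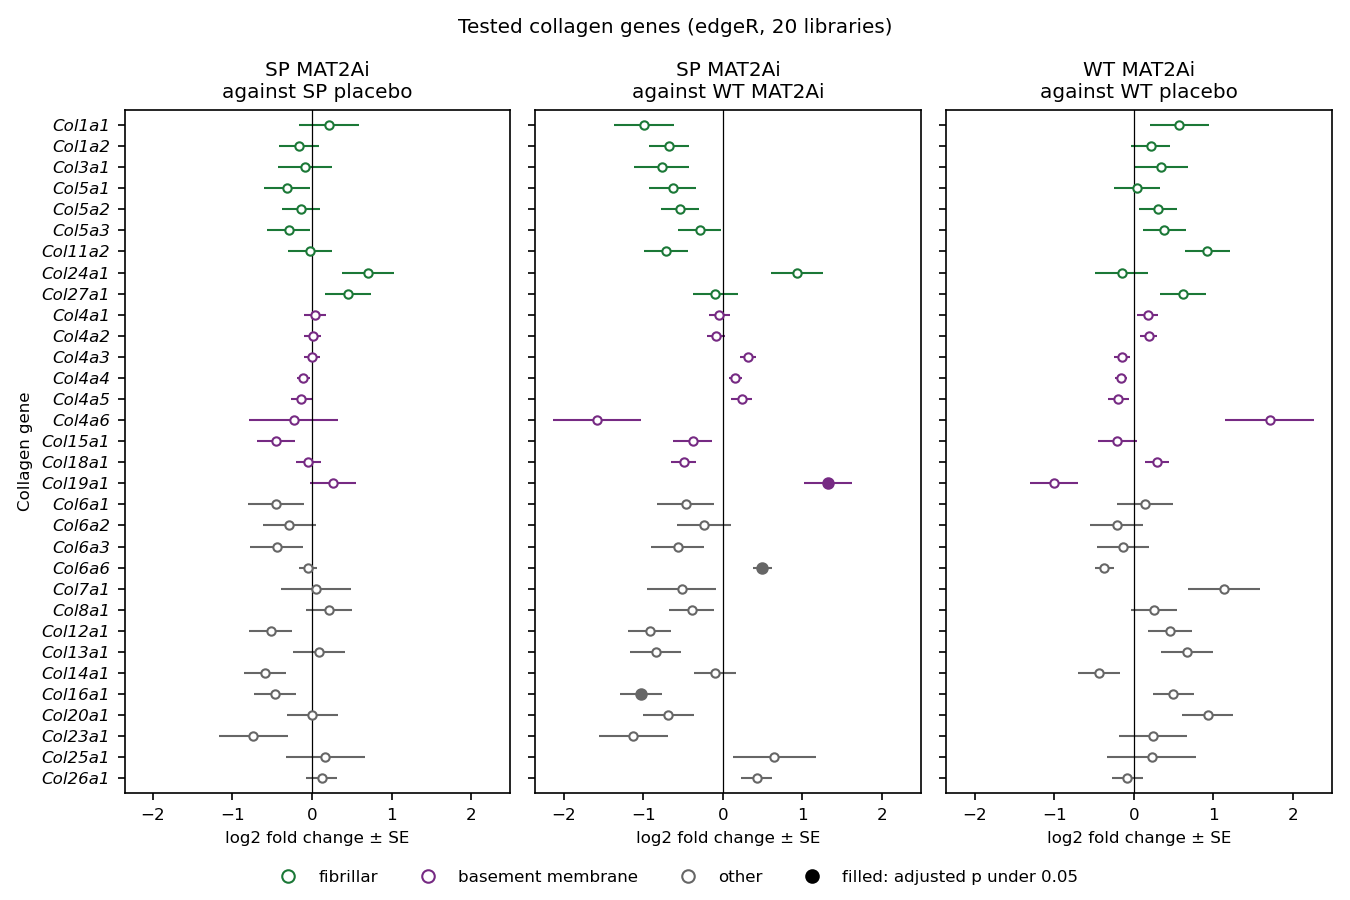
Log2 fold change ± SE of the 32 tested collagen genes in SP MAT2Ai against SP placebo, SP MAT2Ai against WT MAT2Ai and WT MAT2Ai against WT placebo (edgeR, 20 libraries); colours mark the classes and filled points have an adjusted p under 0.05. The filled points are *Col19a1*, *Col6a6* and *Col16a1* in the middle panel, where 24 of 32 genes lie left of 0; the right panel shares the WT MAT2Ai libraries with the middle one.

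*Col19a1* encodes a chain with interrupted helices that is found in basement membrane zones. The gene (ENSMUSG00000026141) lies on the minus strand of mm10 chromosome 1, 24261890 to 24587472. The 250 bases before its RefSeq start (GRCm38.p6, chr1:24587438-24587687, minus strand) are shown because it had the largest fold change of the genes that passed. Capitals in it and in the promoters that follow mark matches, on either strand, to the CCAAT box, the GC box, the TATA box or the AP-1 motif, and this stretch holds none.
Col19a1: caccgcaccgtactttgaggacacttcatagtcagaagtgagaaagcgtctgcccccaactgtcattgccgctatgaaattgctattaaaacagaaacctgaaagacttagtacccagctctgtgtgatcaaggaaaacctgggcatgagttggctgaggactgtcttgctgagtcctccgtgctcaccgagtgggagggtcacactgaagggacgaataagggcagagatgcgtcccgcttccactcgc

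*Col19a1* stood at 3.27, 4.41, 5.13, 4.58 and 3.60 CPM in SP MAT2Ai, against 2.04, 0.513, 2.19, 1.65 and 2.04 CPM in WT MAT2Ai. All SP MAT2Ai libraries were above all WT MAT2Ai libraries, and WT MAT2Ai replicate 2 was the lowest of all 20. The gene was 2.49-fold higher in SP MAT2Ai (log2 fold change 1.31 ± 0.30, SE, adjusted p = 0.0412 with edgeR; 4.20 ± 0.76 against 1.69 ± 0.69 CPM, SD, n = 5 each). The placebo groups held 3.35, 2.09, 3.64, 3.58 and 4.83 CPM in SP placebo, against 1.93, 2.83, 3.30, 4.51 and 4.31 CPM in WT placebo, and these overlapped (0.05 ± 0.29, adjusted p = 1.0). WT MAT2Ai against WT placebo gave −1.0 ± 0.3 (adjusted p = 0.170) and SP MAT2Ai against SP placebo 0.26 ± 0.29 (adjusted p = 0.986). The difference of these inhibitor effects between the genotypes was 1.26 ± 0.42 (adjusted p = 0.842). The call of *Col19a1* between the genotypes was lost without any of SP MAT2Ai replicates 1, 2, 3 or 5 (highest adjusted p = 0.105 of these fits) and held without WT MAT2Ai replicate 2, where the log2 fold change was 1.08 ± 0.24 (adjusted p = 0.0359). Without WT MAT2Ai replicates 2 to 4 it was 1.04 ± 0.31 (adjusted p = 0.118). Over the 18 alternative fits the adjusted p of *Col19a1* ranged from 0.00135 to 0.178, and 11 of them passed. Of all genes, 38, 1, 0 and 0 passed without SP MAT2Ai replicate 1, 2, 3 or 5, against 298 with all libraries.

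*Col6a6* (ENSMUSG00000043719, mm10 chromosome 9, minus strand, 105687809 to 105828160) encodes the α6 chain, which can take the place of the α3 chain in type VI collagen. Its level was 4.08 RPKM, against 0.391 RPKM for *Col6a3*, 0.876 RPKM for *Col6a1* and 0.367 RPKM for *Col6a2*, which encode the common chains. The upstream bases (GRCm38.p6, chr9:105828086-105828335, minus strand) are shown as the second of the genes that passed, with matches to the GC box GGGCGG or its reverse CCGCCC in capitals, at 142 and 91 bases before the start.
Col6a6: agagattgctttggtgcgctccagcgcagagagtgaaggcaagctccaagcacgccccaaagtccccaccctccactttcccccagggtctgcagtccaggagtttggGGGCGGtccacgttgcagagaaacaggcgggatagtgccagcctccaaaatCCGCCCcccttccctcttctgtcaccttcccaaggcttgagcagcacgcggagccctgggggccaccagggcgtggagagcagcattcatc

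*Col6a6* stood at 40.6, 40.5, 39.4, 42.3 and 41.2 CPM in SP MAT2Ai, against 32.7, 21.7, 31.3, 23.7 and 35.6 CPM in WT MAT2Ai. The SP MAT2Ai libraries lay close together and above every WT MAT2Ai library. The gene was 1.41-fold higher (log2 fold change 0.49 ± 0.12, SE, adjusted p = 0.0432 with edgeR; 40.8 ± 1.1 against 29.0 ± 6.0 CPM, SD, n = 5 each). SP placebo held 38.6 to 46.9 CPM, against 31.7 to 43.5 CPM in WT placebo (0.17 ± 0.12, adjusted p = 1.0). Averaged over both treatments SP against WT gave 0.33 ± 0.08 (adjusted p = 0.0545), and WT MAT2Ai against WT placebo gave −0.37 ± 0.12 (adjusted p = 0.183). The call was lost without any one of SP MAT2Ai replicates 1 to 5 or WT MAT2Ai replicates 2 and 3 (highest adjusted p = 0.116), while the log2 fold change of *Col6a6* stayed between 0.41 and 0.58 in the 10 fits that each left out 1 library. Without WT MAT2Ai replicates 2 to 4 it was 0.26 ± 0.12 (adjusted p = 0.319), and over the 18 alternative fits the adjusted p ranged from 0.00507 to 0.319, with 7 past the threshold. Of all genes, 38, 1, 0, 446 and 0 passed without SP MAT2Ai replicate 1, 2, 3, 4 or 5. Without WT MAT2Ai replicate 2 or 3 it was 234 and 177 genes, against 298 with all libraries.

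*Col16a1* (ENSMUSG00000040690, mm10 chromosome 4, plus strand, 130047840 to 130099283) encodes a fibril-associated collagen. Its upstream bases (GRCm38.p6, chr4:130047590-130047839, plus strand) are shown as the gene that passed in the other direction, with a GC box 159 and a CCAAT match 113 bases before the start in capitals.
Col16a1: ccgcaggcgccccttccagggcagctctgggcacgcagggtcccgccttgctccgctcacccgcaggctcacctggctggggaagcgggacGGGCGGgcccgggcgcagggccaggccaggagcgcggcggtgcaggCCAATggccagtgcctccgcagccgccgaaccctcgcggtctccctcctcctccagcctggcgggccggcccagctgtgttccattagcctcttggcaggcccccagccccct

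*Col16a1* stood at 1.72, 1.24, 1.33, 2.38 and 1.25 CPM in SP MAT2Ai, against 3.05, 4.63, 3.90, 3.23 and 1.43 CPM in WT MAT2Ai. The groups overlapped, because WT MAT2Ai replicate 5 lay within the SP range. The gene stood at 0.489 times the WT MAT2Ai level (log2 fold change −1.03 ± 0.26, SE, adjusted p = 0.0483 with edgeR; 1.58 ± 0.49 against 3.25 ± 1.19 CPM, SD, n = 5 each). The placebo means lay between these, at 2.20 ± 0.59 CPM in SP and 2.30 ± 0.44 CPM in WT. Under placebo *Col16a1* held 1.60 to 3.16 CPM in SP, against 1.58 to 2.62 CPM in WT (−0.07 ± 0.26, adjusted p = 1.0). The call was lost without SP MAT2Ai replicate 1, 2, 3 or 5 or WT MAT2Ai replicate 2 or 3 (highest adjusted p = 0.137), and without WT MAT2Ai replicates 2 to 4 the log2 fold change was −0.50 ± 0.31 (adjusted p = 0.492). Over the 18 alternative fits the adjusted p ranged from 0.00605 to 0.492, with 8 past the threshold. Calls over all genes fell as well in the fits that lost *Col16a1*. They were 38, 1, 0 and 0 without SP MAT2Ai replicate 1, 2, 3 or 5, and 234 and 177 without WT MAT2Ai replicate 2 or 3.

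Among the fibrillar collagens, 8 of the 9 tested genes had a negative log2 fold change in SP MAT2Ai against WT MAT2Ai, 6 of them with an unadjusted p under 0.05 and 0 past the threshold, and the median was −0.63. The other gene, *Col24a1*, had a positive one. The 9 genes had medians of −0.09 in SP MAT2Ai against SP placebo (from −0.30 without SP MAT2Ai replicate 4 to 0.03 without SP MAT2Ai replicate 3), −0.09 in SP placebo against WT placebo and 0.34 in WT MAT2Ai against WT placebo, where 8 of 9 were positive and 2 had an unadjusted p under 0.05 (5 of 9 and 1 without WT MAT2Ai replicates 2 to 4). Without WT MAT2Ai replicate 2 the 6 lower genes became 3, and without WT MAT2Ai replicates 2 to 4 they became 1, with medians of −0.51 and −0.45.

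*Col1a1*, which encodes the α1 chain of type I collagen, stood at 5.07, 2.83, 1.68, 7.24 and 1.83 CPM in SP MAT2Ai, against 9.30, 12.1, 7.59, 4.55 and 3.51 CPM in WT MAT2Ai. SP placebo held 2.68, 2.47, 3.78, 2.80 and 4.35 CPM, against 3.32, 7.62, 4.24, 5.27 and 4.45 CPM in WT placebo. The groups overlapped in both comparisons. The log2 fold changes of *Col1a1* were −0.99 ± 0.37 between the genotypes under the inhibitor (SE, adjusted p = 0.135), −0.63 ± 0.38 under placebo (adjusted p = 1.0) and −0.81 ± 0.27 over both treatments (adjusted p = 0.107). Against placebo the inhibitor gave 0.22 ± 0.38 in SP (adjusted p = 0.993) and 0.57 ± 0.37 in WT (adjusted p = 0.455).

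*Col1a2*, the α2 chain of the same molecule, held 14.5, 8.60, 7.0, 16.3 and 6.18 CPM in SP MAT2Ai, against 18.5, 18.7, 19.0, 17.7 and 10.2 CPM in WT MAT2Ai. SP MAT2Ai replicates 2, 3 and 5 were below every other library. The log2 fold change of *Col1a2* was −0.68 ± 0.25 (adjusted p = 0.127), and −0.45 ± 0.33 without WT MAT2Ai replicates 2 to 4. *Col3a1*, which encodes type III collagen, a partner of type I in soft tissues, held 10.2, 4.00, 3.17, 8.90 and 2.69 CPM in SP MAT2Ai, against 9.32, 18.2, 8.84, 8.26 and 4.77 CPM in WT MAT2Ai. Its log2 fold change of −0.77 ± 0.34 (adjusted p = 0.197) became −0.43 ± 0.32 without WT MAT2Ai replicate 2, which held the 18.2 CPM.

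The genes of types I and III varied together from library to library. Over the 20 libraries, after each group's mean was taken away, log2 CPM of *Col1a1* and *Col1a2* correlated at a Pearson r of 0.884 and a Spearman rho of 0.869 (permutation within groups, p = 2.0e-05 for each, adjusted p = 1.6e-04 and 1.2e-04 over the 8 pairs examined). Without SP MAT2Ai replicate 4 and WT MAT2Ai replicate 2 the r was 0.879. *Col1a2* and *Col3a1* gave an r of 0.852 and a rho of 0.842 (permutation p = 4.0e-05 and 3.0e-05, adjusted p = 1.6e-04 and 1.2e-04), and 0.780 without WT MAT2Ai replicate 5 and SP MAT2Ai replicate 5. In that measure *Col1a1* ranked *Col1a2* the second most similar of 16151 other genes. Per length, *Col1a1* mRNA was 0.629 ± 0.142 times that of *Col1a2* in SP MAT2Ai, 0.522 ± 0.076 times in SP placebo, 0.814 ± 0.285 times in WT MAT2Ai and 0.639 ± 0.088 times in WT placebo (SD, n = 5 each). The lengths are the exon unions of the genes, 6563 bases for *Col1a1* and 12426 for *Col1a2*. The ratio depends on them and cannot be set against the 2 α1 chains for each α2 chain of the protein.

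**Figure D3:**
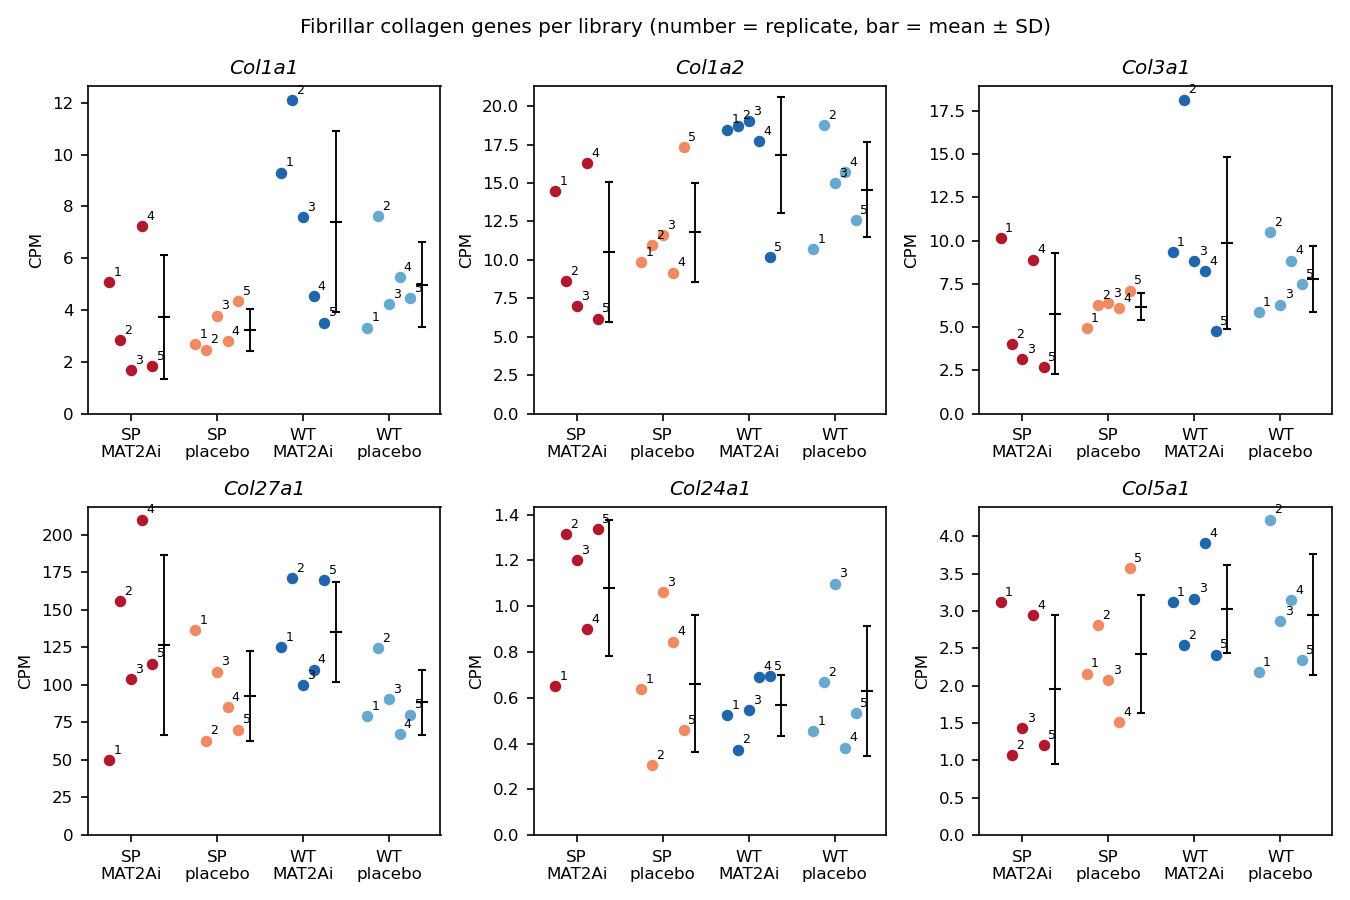
CPM of 6 fibrillar collagen genes in each library by group; numbers are replicates, and bars are the mean ± SD (n = 5). SP MAT2Ai replicates 1 and 4 (5.07 and 7.24 CPM of *Col1a1*) lie above the other 3 SP MAT2Ai libraries (1.68 to 2.83 CPM), and WT MAT2Ai replicate 2 carries the highest *Col1a1* and *Col3a1* (12.1 and 18.2 CPM).

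*Col27a1*, which took most of the fibrillar counts, ran differently from types I and III. It held 49.9, 156, 104, 210.1 and 114 CPM in SP MAT2Ai, against 136, 62.8, 109, 85.3 and 70.1 CPM in SP placebo, and 125, 171, 100.03, 110.2 and 170.0 CPM in WT MAT2Ai, against 79.2, 124, 90.3, 67.2 and 80.2 CPM in WT placebo. The MAT2Ai libraries reached higher than placebo in both genotypes, but the groups overlapped. Over both genotypes MAT2Ai against placebo gave *Col27a1* a log2 fold change of 0.53 ± 0.20 (unadjusted p = 0.0158, adjusted p = 0.257 with edgeR), with 0.45 ± 0.29 in SP and 0.62 ± 0.29 in WT.

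*Col24a1*, a fibrillar collagen of low abundance known from bone, held 0.650, 1.31, 1.20, 0.900 and 1.34 CPM in SP MAT2Ai, against 0.525, 0.373, 0.547, 0.693 and 0.696 CPM in WT MAT2Ai. SP MAT2Ai replicate 1 alone fell inside the WT range. The log2 fold change of *Col24a1* was 0.93 ± 0.33 (adjusted p = 0.111), and against SP placebo it was 0.71 ± 0.33 (adjusted p = 0.834). *Col11a2*, a minor chain of cartilage fibrils, held 0.908, 1.21, 0.864, 1.21 and 1.53 CPM in WT MAT2Ai, against 0.512, 0.461, 0.954, 0.482 and 0.594 CPM in WT placebo, where replicate 3 reached into the inhibitor range (0.92 ± 0.28, adjusted p = 0.170). *Col5a1* and *Col5a2*, whose chains set the diameter of type I fibrils, stood at −0.63 ± 0.29 and −0.53 ± 0.24 in SP MAT2Ai against WT MAT2Ai (adjusted p = 0.215 and 0.203).

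The basement membrane collagens showed no common direction between the genotypes under the inhibitor. Of the 9 genes 4 had a positive and 5 a negative log2 fold change, 1 passed (*Col19a1*), and the median was −0.04, which became 0.10 without WT MAT2Ai replicate 2. In SP MAT2Ai against SP placebo the median was −0.05 (−0.09 to 0.003 when single libraries were left out), in SP placebo against WT placebo 0.09 (0.03 to 0.15) and in WT MAT2Ai against WT placebo −0.15 (−0.20 to −0.07), and in each of these comparisons 0 genes passed with edgeR, with 0, 0 and 2 at an unadjusted p under 0.05.

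*Col4a1* and *Col4a2*, the chains of the ubiquitous type IV network, are read in opposite directions from neighbouring starts on mm10 chromosome 8. The first exons overlap, so that the start of *Col4a1* at 11312826 lies 21 bases from that of *Col4a2* at 11312805. The 30 bases around both starts are shown on the plus strand (GRCm38, chr8:11312801-11312830), with the 22 bases from one start to the other in capitals, because the stretch belongs to both genes.
Col4a2 and Col4a1 starts: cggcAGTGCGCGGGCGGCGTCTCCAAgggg

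*Col4a1* held 164, 194, 188, 161 and 161 CPM in SP MAT2Ai, against 139, 272, 151, 181 and 151 CPM in WT MAT2Ai. WT MAT2Ai replicate 2 was far above all others, and the log2 fold change of −0.04 ± 0.13 (adjusted p = 0.883) became 0.16 ± 0.08 without it. *Col4a2* held 109.8, 116, 114, 113 and 109 CPM in SP MAT2Ai, against 96.2, 165, 99.6, 121 and 114 CPM in WT MAT2Ai, with the same library highest (−0.09 ± 0.11, adjusted p = 0.676). Their deviations from the group means correlated at r = 0.918 and rho = 0.782 over 20 libraries (permutation within groups, p = 2.5e-04 and 6.0e-04, adjusted p = 5.0e-04 and 0.0012 over 8 pairs), and at r = 0.747 without WT MAT2Ai replicate 2 and SP placebo replicate 5. Per length *Col4a1* mRNA was 1.37 ± 0.10 times that of *Col4a2* in SP MAT2Ai, 1.34 ± 0.04 times in SP placebo, 1.32 ± 0.10 times in WT MAT2Ai and 1.34 ± 0.08 times in WT placebo (SD, n = 5 each).

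None of *Col4a3*, *Col4a4* and *Col4a5* passed with edgeR in any comparison, and which cells of the cortex these counts came from was not tested. *Col4a3* held 176, 166, 197, 164 and 156 CPM in SP MAT2Ai, against 130.0, 118, 126, 169 and 148 CPM in WT MAT2Ai, and the ranges overlapped only through WT MAT2Ai replicate 4. Its log2 fold change was 0.32 ± 0.10 (adjusted p = 0.0863), and 0.31 ± 0.12 without WT MAT2Ai replicates 2 to 4. Over both treatments SP against WT gave *Col4a3* 0.24 ± 0.07 (adjusted p = 0.0873), *Col4a4* 0.13 ± 0.06 (adjusted p = 0.201) and *Col4a5* 0.20 ± 0.09 (adjusted p = 0.239). The 8 tested podocyte markers all had negative log2 fold changes in SP MAT2Ai against WT MAT2Ai, with a median of −0.30 and 0 past the threshold (3 at an unadjusted p under 0.05), and their part in these values was not tested. *Col4a3* and *Col4a4*, whose starts lie 72 bases apart on chromosome 1, correlated over the 20 libraries at r = 0.678 and rho = 0.629 (permutation within groups, p = 0.00391 and 0.00785, adjusted p = 0.00626 and 0.0126), and at r = 0.535 without WT MAT2Ai replicate 4 and WT placebo replicate 5. *Col4a4* and *Col4a5*, of the same network, gave r = 0.414 and rho = 0.450 (permutation within groups, p = 0.0893 and 0.0735, adjusted p = 0.119 and 0.0981). *Col4a1* and *Col4a4*, from the different networks, gave r = −0.266 and rho = −0.009 (permutation p = 0.296 and 0.974, adjusted p = 0.296 and 0.974), and r = 0.036 without WT MAT2Ai replicate 2 and SP placebo replicate 5. The summed level of *Col4a3* and *Col4a4* over that of *Col4a1* and *Col4a2* was 0.848 to 1.06 in SP MAT2Ai, 0.891 to 1.11 in SP placebo, 0.470 to 1.0 in WT MAT2Ai and 0.846 to 1.15 in WT placebo, with the 0.470 in WT MAT2Ai replicate 2.

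*Col4a6*, whose chain joins that of *Col4a5* in the basement membranes of Bowman's capsule and smooth muscle, was high in a single library. WT MAT2Ai held 0.440, 0.311, 4.30, 0.888 and 0.487 CPM, against 0.436, 0.312, 0.550, 0.266 and 0.406 CPM in WT placebo. The log2 fold change of 1.71 ± 0.56 (adjusted p = 0.187) became 0.42 ± 0.35 without WT MAT2Ai replicate 3, and the −1.58 ± 0.55 of SP MAT2Ai against WT MAT2Ai (adjusted p = 0.109) became −0.29 ± 0.35. In that library the 5 markers of urothelium, the lining of the renal pelvis, summed to 28.5 CPM, against 0.0709 to 8.87 CPM in the other 19, and the markers of adipocytes to 10.5 CPM, against 0 to 5.52 CPM. The part of either cell type in the *Col4a6* value was not tested. *Col4a5* and *Col4a6* gave r = 0.622 and rho = 0.269 over the 20 libraries (permutation within groups, adjusted p = 0.182 and 0.354). Without WT MAT2Ai replicates 2 and 3 the r was −0.080.

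*Col18a1* held 126, 130.4, 125, 141 and 111 CPM in SP MAT2Ai, against 171, 293, 149, 143 and 135 CPM in WT MAT2Ai (−0.49 ± 0.16, adjusted p = 0.0809). Without WT MAT2Ai replicate 2, the highest, the log2 fold change was −0.24 ± 0.09. *Col18a1* overlaps the folate carrier gene *Slc19a1* on the other strand, and the strand setting of the counting is not given in the sources used here. *Col15a1*, which encodes a related collagen of vascular and muscle basement membranes, stood at −0.38 ± 0.24 (adjusted p = 0.375) in the same comparison and at −0.45 ± 0.24 in SP MAT2Ai against SP placebo (adjusted p = 0.899).

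**Figure D4:**
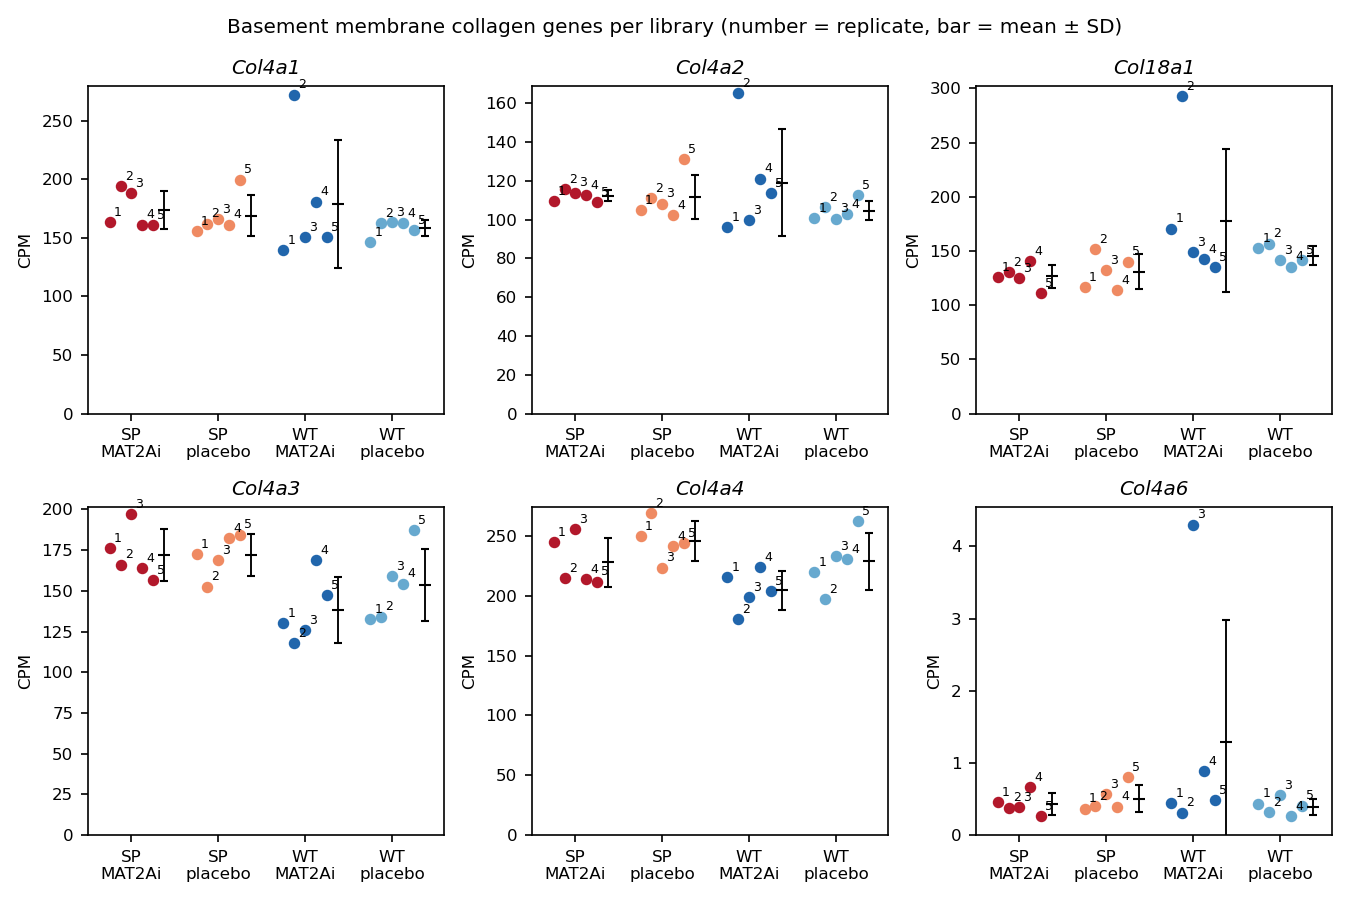
CPM of 6 basement membrane collagen genes in each library by group; numbers are replicates, and bars are the mean ± SD (n = 5). WT MAT2Ai replicate 2 is highest for *Col4a1* (272 CPM), *Col4a2* (165 CPM) and *Col18a1* (293 CPM) and lowest for *Col4a3* (118 CPM) and *Col4a4* (181 CPM), and *Col4a6* is high in WT MAT2Ai replicate 3 alone (4.30 CPM).

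Of the 14 tested genes of other collagens, 11 had a negative log2 fold change in SP MAT2Ai against WT MAT2Ai, with a median of −0.49. An unadjusted p under 0.05 was met by 5 lower and 2 higher genes, and 1 passed in each direction (*Col16a1* and *Col6a6*). In SP MAT2Ai against SP placebo the median was −0.17, between −0.44 without SP MAT2Ai replicate 4 and −0.03 without SP placebo replicate 5, and −0.27 without SP placebo replicates 1 and 2. In SP placebo against WT placebo it was 0.05, with either sign when single libraries were left out (−0.16 without SP placebo replicate 5 to 0.13 without SP placebo replicate 4). In WT MAT2Ai against WT placebo it was 0.23, and 0.12 without WT MAT2Ai replicate 4 or 0.09 without WT MAT2Ai replicates 2 to 4. *Col12a1*, which encodes a fibril-associated collagen of tension-bearing tissue, held 2.19, 1.65, 1.52, 3.67 and 1.81 CPM in SP MAT2Ai, against 3.11, 6.74, 4.97, 3.43 and 2.33 CPM in WT MAT2Ai. The groups overlapped, the log2 fold change was −0.92 ± 0.28 (adjusted p = 0.0689), and without WT MAT2Ai replicates 2 to 4 it was −0.32 ± 0.30. The membrane-spanning collagens *Col13a1* and *Col23a1* stood at −0.85 ± 0.32 and −1.12 ± 0.44 (adjusted p = 0.138 and 0.141).

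*Col14a1*, a fibril-associated collagen of interstitial fibroblasts, had the smallest p among the collagens in SP MAT2Ai against SP placebo. It held 11.7, 5.23, 5.03, 9.29 and 6.08 CPM in SP MAT2Ai, against 9.64, 13.0, 9.81, 8.36 and 15.2 CPM in SP placebo, which overlapped (−0.59 ± 0.26, unadjusted p = 0.0378, adjusted p = 0.833). In WT kidneys the inhibitor gave *Col14a1* −0.44 ± 0.26 (adjusted p = 0.417). *Col20a1* was the collagen whose WT groups did not overlap, with 1.84, 1.30, 1.58, 1.30 and 1.62 CPM in WT MAT2Ai, against 0.872, 0.714, 1.20, 0.333 and 0.906 CPM in WT placebo (0.93 ± 0.32, adjusted p = 0.211). Its count is uncertain, because a transcript on the same strand, BX649560.1, overlaps the gene and held 2943 counts over all libraries, against 1389 for *Col20a1*.

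The genes of the common type VI chains varied together. *Col6a1* and *Col6a2*, neighbours on chromosome 10, correlated over the 20 libraries at r = 0.911 and rho = 0.875 (permutation within groups, p = 1.7e-04 and 7.0e-05, adjusted p = 4.5e-04 and 1.9e-04), and at r = 0.881 without SP placebo replicate 5 and SP MAT2Ai replicate 4. *Col6a1* held 1.75 to 5.70 CPM in SP MAT2Ai, 2.74 to 8.40 CPM in SP placebo, 2.39 to 5.60 CPM in WT MAT2Ai and 3.08 to 5.60 CPM in WT placebo. These ranges overlapped in all 4 groups, unlike those of *Col6a6* between the MAT2Ai groups.

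The 12 collagen genes that were not tested are *Col2a1* and *Col11a1* of the fibrillar class and *Col6a4*, *Col6a5*, *Col8a2*, *Col9a1*, *Col9a2*, *Col9a3*, *Col10a1*, *Col17a1*, *Col22a1* and *Col28a1* of the others. Most of these are known from cartilage, skin or cornea. Their mean levels over the 20 libraries were 0.104 CPM or less, and the highest single value was 0.513 CPM for *Col17a1*, a collagen of epithelial hemidesmosomes, in WT MAT2Ai replicate 2. Among the tested genes the lowest was *Col25a1*, at a mean of 0.111 CPM and 147 counts over all libraries.

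RefSeq upstream sequences were found for 35 of the 44 genes, and for 28 of the 32 tested ones with 250 bases. The GC box GGGCGG or its reverse CCGCCC was found in 17 of the 28 (60.7%), against 32.7% of 32851 promoters of the same length. CCAAT or its reverse was found in 9 (32.1%, against 33.9%), TATAAA or its reverse in 3 (10.7%, against 12.4%), and the AP-1 heptamer TGACTCA or its reverse in 1 (3.57%, against 4.46%). These counts of letters, from the reference strain and not from C3H/HeJ, are a description and no measure of binding. The 28 promoters belong to tested genes, while the 32851 were not limited to tested genes, so the shares come from unlike sets.

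Averaged over both treatments, SP against WT gave 0 of 32 collagen genes past the threshold with edgeR, 4 with DESeq2 and 7 with limma-voom, where 1.33% of all genes passed with edgeR. An unadjusted p under 0.05 was met by 15, 7 higher and 8 lower, against 19.6% of all genes, and *Col6a6* came closest to the threshold (adjusted p = 0.0545). The 15 became 8 of 34 without WT MAT2Ai replicates 2 to 4 (5 higher, 3 lower) and 10 of 34 without SP placebo replicates 1 and 2 (4 higher, 6 lower). Over all genes the numbers in these fits were 2972 of 16770 and 3125 of 16551. Averaged over both genotypes, MAT2Ai against placebo gave 0 with each of the 3 tools, where 0.223% of all genes passed with edgeR, and 5 with an unadjusted p under 0.05, against 14.7%, or 9 of 34 without SP placebo replicates 1 and 2. Over all genes 1892 of 16551 had an unadjusted p under 0.05 without SP placebo replicates 1 and 2. The difference of the MAT2Ai effect between SP and WT gave 0 with each of the 3 tools and 0% of all genes with edgeR, and 5 collagen genes had an unadjusted p under 0.05, against 5.59% of all genes, or 2 of 34 without WT MAT2Ai replicates 2 to 4 (1 higher, 1 lower). Over all genes 813 of 16770 had an unadjusted p under 0.05 without WT MAT2Ai replicates 2 to 4. The 5 collagen genes with all libraries were *Col19a1*, with a positive difference, and *Col4a6*, *Col11a2*, *Col12a1* and *Col16a1*, with negative ones. These averages use the same libraries as the comparisons of single groups.

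Among genes that make, process, bind or remove collagen, those that passed in SP MAT2Ai against WT MAT2Ai were lower in SP. The shares below stand against 1.84% of all genes past the threshold and 21.8% at an unadjusted p under 0.05. The calls below in that comparison with all libraries were lost without SP MAT2Ai replicate 2, 3 or 5. In those fits 0 of all genes were called lower. Of 21 tested genes for folding and modification of the chains 0 passed with edgeR, with 1 higher and 5 lower at an unadjusted p under 0.05, and the median was −0.08. Of 14 genes for processing and cross-linking 2 fell (14.3%), *Bmp1*, which removes the C-terminal propeptide (3.56 ± 1.01 against 6.45 ± 1.52 CPM, SD, n = 5 each; log2 fold change −0.85 ± 0.21, adjusted p = 0.0432; −0.73 and −0.83, both not past the threshold, without WT MAT2Ai replicate 2 or 3), and *Loxl4*, a cross-linking lysyl oxidase (−3.15 ± 0.74, adjusted p = 0.0422). *Loxl4* stood at 6.33 CPM in WT MAT2Ai replicate 3 and at no more than 0.817 CPM in any other library, and without that library the log2 fold change was −1.36 ± 0.45, which did not pass.

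Of 21 collagen-binding matrix genes 1 fell (4.76%), *Postn*, which encodes periostin (−1.95 ± 0.49, adjusted p = 0.0454, and −1.29 ± 0.42, not past the threshold, without WT MAT2Ai replicate 3), and the list's median was −0.53. Of 13 genes for breakdown and its inhibitors 1 fell (7.69%), *Timp1*, an inhibitor of collagenases (−3.57 ± 0.87, adjusted p = 0.0432). *Timp1* held 8.51 CPM in WT MAT2Ai replicate 2 and at most 0.605 CPM in any other library, and its log2 fold change without that library was −1.30 ± 0.51, which did not pass. Of 9 tested collagen receptor genes 0 passed with edgeR, the tool used for these lists, and 2 had an unadjusted p under 0.05, both lower.

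*Tgfb1*, the main profibrotic cytokine, fell in SP MAT2Ai against WT MAT2Ai. It held 6.70, 6.35, 6.17, 7.20 and 5.51 CPM in SP MAT2Ai, against 9.50, 12.2, 9.60, 10.8 and 9.64 CPM in WT MAT2Ai. These ranges did not overlap (−0.69 ± 0.14, adjusted p = 0.0292), and without WT MAT2Ai replicate 2 the log2 fold change was −0.63 ± 0.14, which still passed. Without WT MAT2Ai replicates 2 to 4, a fit that keeps 2 WT MAT2Ai libraries, it did not pass, at −0.58. Nor did *Tgfb1* pass in this comparison without SP MAT2Ai replicate 2, 3 or 5, where 0 of all genes were called lower. Over both treatments *Tgfb1* fell by 0.43 ± 0.10 on the log2 scale (adjusted p = 0.0379), while *Crtap*, a partner of the prolyl hydroxylase that modifies the chains, rose by 0.23 ± 0.05 (adjusted p = 0.0416). *Crtap* did not pass without SP placebo replicates 1 and 2 or without WT MAT2Ai replicate 3 (0.24 and 0.23), nor *Tgfb1* without WT MAT2Ai replicates 2 to 4 (−0.37). Without WT MAT2Ai replicates 2 to 4 *Crtap* passed over both treatments (0.27, adjusted p = 0.0117 with edgeR) and in SP MAT2Ai against WT MAT2Ai (0.35, adjusted p = 0.0282). *Bmp1* was lower over both treatments (−0.59 ± 0.14, adjusted p = 0.0493), and did not pass without WT MAT2Ai replicate 2 or 3. In the other comparisons of single groups 0 genes of these lists passed with edgeR.

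Markers of other cells moved in the same comparison, in both directions. All 9 tested markers of fibroblasts and pericytes had a negative log2 fold change in SP MAT2Ai against WT MAT2Ai, 1 of them past the threshold (*Pdgfra*, −1.59 ± 0.38, adjusted p = 0.0422), with a median of −0.85, and their sum ranged over 62.7 to 91.2 CPM in SP MAT2Ai, 74.4 to 109.5 CPM in SP placebo, 79.8 to 136 CPM in WT MAT2Ai and 86.4 to 133 CPM in WT placebo. All 7 markers of smooth muscle and myofibroblasts were negative and 2 passed, with sums of 75.3 to 100.9 CPM in SP MAT2Ai, 92.6 to 116 CPM in SP placebo, 89.1 to 182 CPM in WT MAT2Ai and 89.9 to 130.4 CPM in WT placebo. All 8 endothelial markers were negative and 1 passed, and all 6 macrophage markers were negative and 3 passed. All 8 markers of injured tubule were negative and 3 passed. Their sum was 6888 CPM in WT MAT2Ai replicate 2, but 386 to 801 CPM in the other WT MAT2Ai libraries and 331 to 516 CPM in SP MAT2Ai. Of all genes tested 1.84% passed in this comparison. Without SP MAT2Ai replicate 2, 3 or 5 the marker calls above were lost, as 0 of all genes were called lower in those fits. The summed markers of proximal tubule were higher in SP MAT2Ai (12094 ± 545 against 10267 ± 1671 CPM, SD, n = 5 each), with *Slc5a12* lower on average. WT MAT2Ai replicate 2 was lowest, at 7537 CPM. Mesangial and distal tubule lists were lower as sums but mixed, with *Gata3* (10.4 against 9.95 CPM) and *Calb1* (157 against 123 CPM) higher on average. In these whole-tissue samples fewer cells of a type and less RNA per cell cannot be told apart, and the part of these markers in the collagen values was not tested.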

How the data were processed

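Poly(A) RNA of renal cortex was sequenced as directional libraries, 5 for each of the 4 groups. Per the labels and the study's methods, the authors aligned the reads to mm10 with STAR and deposited 1 htseq file of raw counts per gene (Ensembl 78) for each library. The strand setting of the counting is not given in the sources used here. The 5 lines per file that name no gene did not enter any library size or fit. Reads in no gene came to 3.87 to 5.49% and ambiguous reads to 0.702 to 0.794%. Both are shares of gene counts, reads in no gene and ambiguous reads together. Depth was 53296824 to 79339949 gene counts, of which 12.4 to 22.2% were mitochondrial, and no libraries were identical. Symbols and coordinates came from GENCODE M21, which matched 42546 of the 43430 genes.

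Genes that passed filterByExpr (minimum count 10) were scaled by TMM and tested with edgeR 4.0.16 (quasi-likelihood, R 4.3.3) in 1 fit over the 20 libraries with 4 group means and no covariates. Benjamini-Hochberg adjustment ran over all 16152 genes, and calls were made at an adjusted p under 0.05. The SE was obtained as the absolute log2 fold change over root F. CPM is scaled to the TMM effective library size, and RPKM divides it by the exon union of the gene. For correlations, log2 CPM used a prior count of 2 and each group's mean was subtracted; labels were permuted within groups. Fits were checked on simulated counts.

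The labels do not say that libraries of a group came from separate animals, so p-values measure the spread between these samples. Members, marker lists and pathway lists were chosen with earlier results of these data known. Named genes were *Col1a1*, *Col1a2*, *Col3a1*, the type IV chains and *Col19a1*; members past the threshold; the 3 members with the smallest p in each comparison of single groups; the 3 highest per length in each class; and up to 4 genes with the smallest p per pathway list. *Col5a1*, *Col5a2*, *Col6a2*, *Col6a3*, *Col13a1*, *Col15a1*, *Col17a1*, *Col20a1*, *Col23a1* and *Col25a1* were named after their values were seen, as were *Pdgfra*, *Slc5a12*, *Gata3* and *Calb1*. The values of 1 gene of the pathway lists are not reported here. Alternatives were RLE scaling, DESeq2 1.42.0, limma-voom with sample weights (limma 3.58.1), no filter, no mitochondrial genes, the compared groups only, a replicate block, leaving out each library, and leaving out SP placebo replicates 1 and 2 or WT MAT2Ai replicates 2 to 4. The last of these keeps 2 WT MAT2Ai libraries, and no separate reason for leaving out replicate 4 is given here.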

Additional observations from a re-analysis of the deposited data

Results flagged for a closer look

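In 8 of 128 groups examined (the 32 tested collagen genes in 4 groups of 5 libraries) a single library lay far from the other 4, where chance gives about 1 in 20. The gap to the nearest library, as a share of the group's whole range, was above the critical value of 0.71. In SP placebo replicate 5 this was so for *Col6a1* (8.40 CPM, next 3.35 CPM, share 0.892), *Col6a2* (6.20 CPM, next 2.80 CPM, share 0.8) and *Col4a1* (199.7 CPM, next 166 CPM, share 0.768). *Col4a6* in WT MAT2Ai replicate 3 (4.30 CPM, next 0.888 CPM) had a share of 0.855, and *Col18a1* in WT MAT2Ai replicate 2 (293 CPM, next 171 CPM) one of 0.774. *Col1a2* in WT MAT2Ai replicate 5 (10.2 CPM, next 17.7 CPM) and *Col13a1* in WT placebo replicate 1 (0.796 CPM, next 1.55 CPM) were the low libraries of their groups, with shares of 0.854 and 0.742. *Col11a2* in WT placebo replicate 3 (0.954 CPM, next 0.594 CPM) had a share of 0.73.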

How the results depend on the processing

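In SP MAT2Ai against WT MAT2Ai the 3 collagen genes past the threshold became 7 with DESeq2, 1 with limma-voom, 0 with the compared groups only, 0 without WT MAT2Ai replicates 2 to 4, and between 0 (without SP MAT2Ai replicate 1, 2, 3 or 5) and 5 (without WT MAT2Ai replicate 4 or 5) when each library was left out; without WT MAT2Ai replicate 2 or 3 it was 1. Calls over all genes in that comparison were 38, 1, 0 and 0 without SP MAT2Ai replicate 1, 2, 3 or 5. They were 774 and 769 without WT MAT2Ai replicate 4 or 5, against 298 with all libraries. In WT MAT2Ai against WT placebo DESeq2 gave 1 in place of 0. For SP against WT over both treatments DESeq2 gave 4, limma-voom 7 and the leave-one-out fits 0 to 2, in place of 0. The cause of these differences was not tested. The fit without WT MAT2Ai replicates 2 to 4 keeps only 2 WT MAT2Ai libraries, so its 0 cannot be told apart from a loss of power.

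Class medians near 0 changed sign in several comparisons when single libraries were left out. The median of the basement membrane collagens in SP MAT2Ai against WT MAT2Ai was among them, with 0.10 by limma-voom, 0.12 without WT MAT2Ai replicates 2 to 4 and −0.11 to 0.10 when each library was left out. For the difference of the MAT2Ai effect between SP and WT that median was −0.0087 with limma-voom and 0.020 without WT MAT2Ai replicates 2 to 4.

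Over all genes, calls in SP MAT2Ai against WT MAT2Ai numbered 298 with edgeR, 1203 with DESeq2 and 2 with the compared groups only. DESeq2 and limma-voom gave 27 and 17 in place of 3 for SP MAT2Ai against SP placebo, 201 and 2 in place of 0 for WT MAT2Ai against WT placebo, 7 and 4 in place of 0 for SP placebo against WT placebo, 187 and 70 in place of 36 for MAT2Ai against placebo over both genotypes, and 885 and 1341 in place of 215 for SP against WT over both treatments.

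Libraries with the same replicate number did not deviate together (mean correlation −0.016 over 30 pairs of libraries, 4 of them over 0.1, and 6 of 20 libraries correlated best with their own number), so the number is not taken as a pairing. With the replicate block 1 collagen gene (*Col19a1*) and 88 genes in all were called in SP MAT2Ai against WT MAT2Ai.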
